A study of Mus musculus with 2 samples.

Results

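The genes followed here are 9 members of the DNA methylation machinery: the maintenance methyltransferase Dnmt1, its cofactor Uhrf1 and the related Uhrf2, the de novo methyltransferase Dnmt3a, the oxidising enzymes Tet1, Tet2 and Tet3, and the methyl-binding-domain genes Mbd2 and Mbd3. They were taken by symbol, 9 of the 32285 genes in the deposited matrices and of the 26576 genes with at least 1 transcript in the cells kept. All 9 were detected in both libraries, and all 9 passed the low-count filter in each comparison. Single-cell RNA sequencing had been run on dissociated dorsal telencephalon, the embryonic forebrain region that gives rise to the cerebral cortex, of mouse embryos of the WT (wild-type) group, at day 16.5 of development. The study's methods name the strain as C57BL/6J. The series was built around a conditional loss of Dot1l, which encodes a histone methyltransferase, driven by Emx1-Cre in the cortical lineage, and the knockout was not analysed here. Whether the WT embryos carried the Cre transgene or floxed alleles was not given in the sources used here. Both libraries, WT replicate 1 and WT replicate 6, share the WT genotype, so every comparison is between cell classes within these 2 libraries.

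DNA methylation is copied at each round of replication. UHRF1 recognises hemimethylated DNA behind the replication fork and recruits DNMT1, which methylates the new strand, and UHRF2 is a related protein that also binds modified cytosines. DNMT3A sets new methylation marks and is known for methylating neuronal DNA during maturation, while the TET enzymes oxidise 5-methylcytosine to 5-hydroxymethylcytosine, an intermediate of demethylation that is abundant in the brain. MBD2 binds methylated DNA, and MBD2 and its close relative MBD3 are each found in forms of the nucleosome remodelling and deacetylase (NuRD) complex. In the embryonic cortex, radial glial cells (RGC) divide to give intermediate progenitor cells (IPC) and excitatory neurons, whereas the interneurons arise in the ganglionic eminences (GE) below the cortex and migrate in.

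The libraries held 14136 and 13046 cell barcodes with 74930397 and 68964234 unique molecular identifiers (UMIs, 1 per captured mRNA molecule). After filtering, 8139 and 8209 cells remained, of which 26 barcodes occurred in both libraries. Cells were assigned to classes by the UMIs of marker genes, none of them among the 9, so class names stand for marker gates and not for sorted cells. The gates placed 4906 and 5306 cells, while 36.5% and 32.3% of kept cells met no gate. Radial glia were gated on Pax6, Sox2, Sox9, Hes1, Hes5, Emx2, Hopx and Slc1a3, intermediate progenitors on Eomes, excitatory neurons on Neurod2 and Neurod6, and interneurons on Gad1, Gad2 and Dlx genes. Cycling progenitors carried at least 2 UMIs of Mki67 and Top2a together, and non-cycling progenitors, excitatory neurons, interneurons and striatal neurons carried none. These gates gave 121 and 137 cycling RGC, 115 and 110 non-cycling RGC, 70 and 61 cycling IPC, 235 and 295 non-cycling IPC, 2092 and 2369 excitatory neurons and 1078 and 1141 interneurons in replicates 1 and 6. The small classes were the least clean: 55.1% and 32.6% of microglia, 32.5% and 50.8% of endothelial cells, 31.2% and 23.3% of Cajal-Retzius cells and 41.2% and 90.9% of oligodendrocyte precursors (OPC) had high doublet scores. The shares were 41.9% and 46.7% for fibroblasts and 23.2% and 21.1% for mural cells.

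Levels are UMIs of a gene per 1000000 UMIs of its class (CPM), summed over all cells of the class in a library. The matrices hold 3' UMIs whose intronic share was not stated, so a level is compared between classes and not between genes. Differences were tested on the summed counts with the quasi-likelihood test of edgeR, 2 sums per class, and a gene was called at a Benjamini-Hochberg adjusted p under 0.05 over all genes tested. Nothing in the labels says that the libraries came from separate embryos, and the p-values measure the spread between these libraries, which may be technical. Reducing each cell to 1500 UMIs before summing, so that cells weigh equally, ended many of the calls given here, which the closing paragraphs name. A higher sum can reflect more transcripts in each cell or more cells that hold any, which sums cannot tell apart.

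The promoters of the replication-coupled members are shown first, since Dnmt1 and Uhrf1 gave the widest range of levels along the cell cycle. RefSeq lists promoters (250 bases before to 50 after a start site, GRCm38.p6, the patch release of the mm10 build named in the submitters' processing notes) for 8 of the 9 genes. They were searched on both strands for the words TTTCCCGC, TTTCGCGC, TTTGCCGC and TTTGGCGC, forms of the site bound by E2F factors, which drive S-phase genes. Capitals mark these words, written in the gene's orientation, so that a word on the opposite strand appears as its reverse complement. The Dnmt1 window is the most downstream of 3 listed starts of the gene (chr9:20952574-20952873, minus strand), the Uhrf1 window is the downstream of its 2 starts (chr17:56304063-56304362, plus strand), and the Uhrf2 window (chr19:30030263-30030562, plus strand) is shown as the relative without such a word.
Dnmt1: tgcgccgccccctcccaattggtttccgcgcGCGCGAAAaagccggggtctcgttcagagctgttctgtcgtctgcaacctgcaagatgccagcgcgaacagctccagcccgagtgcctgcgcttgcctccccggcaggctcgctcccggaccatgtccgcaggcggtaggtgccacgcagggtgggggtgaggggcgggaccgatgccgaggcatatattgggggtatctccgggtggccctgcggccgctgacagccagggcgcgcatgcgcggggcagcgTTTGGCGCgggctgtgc
Uhrf1: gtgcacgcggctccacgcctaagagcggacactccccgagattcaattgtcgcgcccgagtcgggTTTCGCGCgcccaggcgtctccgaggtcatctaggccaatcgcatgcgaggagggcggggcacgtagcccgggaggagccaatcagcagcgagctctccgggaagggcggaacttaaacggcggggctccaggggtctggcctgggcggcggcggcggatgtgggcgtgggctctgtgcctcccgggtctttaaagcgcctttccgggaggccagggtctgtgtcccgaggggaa
Uhrf2: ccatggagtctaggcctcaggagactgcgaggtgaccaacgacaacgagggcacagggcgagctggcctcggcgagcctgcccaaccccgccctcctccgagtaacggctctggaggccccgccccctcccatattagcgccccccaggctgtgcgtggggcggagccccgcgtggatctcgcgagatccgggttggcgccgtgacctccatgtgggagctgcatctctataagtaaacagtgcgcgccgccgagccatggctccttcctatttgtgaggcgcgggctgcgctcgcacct

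Dnmt1 held TTTCGCGC on the opposite strand from position -219 and TTTGGCGC from position 34, counted from the start site, and Uhrf1 held TTTCGCGC from position -185. These were 2 of the 8 members with a listed promoter. Of all 27025 genes with a listed promoter, 704 (2.6%) had at least 1 of the 4 words in one, as did 744 of the 32851 promoters (2.26%). The words are letters in a window and do not show that a factor binds there. No word was found in the listed windows of Dnmt3a, Tet1, Tet2, Tet3, Mbd3 or Uhrf2. The other listed windows of Dnmt1 and Uhrf1, not printed here, held none either. Both Dnmt1 words lie downstream of the other listed starts of the gene, and so does the Uhrf1 word of its other start. Which start these cells use was not tested, so the words may lie inside the transcribed gene and not before it. A gene with several windows has more chances to hold a word. The genes span chr9:20907206-20959888 (Dnmt1), chr17:56303337-56323486 (Uhrf1) and chr19:30030430-30093726 (Uhrf2) in the RefSeq annotation.

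Across 17 cell classes the members fell into several patterns. Dnmt1 was highest in cycling IPC, at 155 and 187.5 CPM in replicates 1 and 6, followed by cycling GE progenitors at 137 and 153 CPM, and the libraries of these classes did not overlap. OPC and cycling RGC came next with overlapping libraries, and below them lay a plateau from 66.1 CPM in mural cells to 48.0 CPM in striatal neurons (means of 2 libraries) in which each neighbour overlapped the next. The excitatory, interneuron and striatal classes were on this plateau. Cajal-Retzius cells, at 39.4 and 38.7 CPM, and non-cycling IPC, at 34.8 and 40.2 CPM, were below it and overlapped. The ends of the plateau did not overlap each other. Its mural, fibroblast, endothelial and microglia classes were not gated on the cycle. Without cells that held Mki67, Top2a or 5 UMIs of 17 S-phase genes, left out after seeing the data, Dnmt1 was lower in each of them. Mural cells were then at 34.3 and 31.5 CPM and fibroblasts at 22.2 and 22.3 CPM.

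Uhrf1 had the steepest order. Its mean level was 103 CPM in cycling GE progenitors, 93.1 CPM in cycling IPC and 79.0 CPM in cycling RGC, each apart from the next in both libraries. Excitatory neurons held 1.47 and 1.33 CPM. After each cell was reduced to 2000 UMIs, newborn excitatory neurons showed a Uhrf1 UMI in 0.294% and 0.283% of cells, against 0.538% and 0.383% of erythroid cells, in which the gene served as a measure of free RNA. Without that reduction, newborn neurons had shares of 1.20% and 1.24%, with median depths of 8529 and 7819.5 UMIs, and erythroid cells 0.901% and 1.16%, with 2953 and 3630 UMIs. The erythroid shares rest on 2 and 3 Uhrf1 UMIs in 222 and 259 cells, which were not gated on the cell cycle. Excitatory neurons held 30 and 28 Uhrf1 UMIs. Their Uhrf1 was thus not shown to exceed free RNA, nor to equal it, and fold changes against these neurons rest on a very low level.

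Dnmt3a was ordered differently. Its highest level was in Cajal-Retzius cells, the early-born Reln-expressing neurons of the marginal zone, at 177 and 163 CPM in 48 and 43 cells, with a mean of 170.2 CPM and of 221 CPM without the cells of high doublet score. Microglia followed at 130.4 and 107.5 CPM and non-cycling RGC at 94.0 and 127 CPM, with overlapping libraries. The lowest neural level was in newborn excitatory neurons, at 26.9 and 25.0 CPM, below deep-layer neurons at 33.5 and 36.6 CPM. Each of the 3 excitatory classes stood apart from the class below it, as did Cajal-Retzius cells, interneurons and cycling GE progenitors.

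Among the erasers, Tet1 was highest in non-cycling RGC at 62.3 and 61.2 CPM and lowest, outside erythroid cells, in microglia at 20.6 and 7.90 CPM. Tet2 was highest in interneurons at 102 and 108 CPM, apart from striatal neurons at 85.7 and 95.4 CPM. Tet3 was highest in microglia and interneurons, whose means of 157 and 156 CPM overlapped, and lowest, outside erythroid cells, in OPC at 40.3 and 36.3 CPM, a class of 34 and 22 cells. For Tet1, interneurons were the fourth class in the order and overlapped their neighbours.

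Of the readers, Mbd2 was highest in mural, endothelial and fibroblast classes, with mean levels of 88.9, 83.8 and 72.0 CPM and overlapping libraries, and lowest among neural classes in non-cycling IPC at 23.0 and 25.2 CPM. The fibroblast mean joins libraries that lay far apart, at 98.3 and 45.7 CPM in 31 and 45 cells. Mbd3 was highest in cycling GE progenitors, cycling IPC and cycling RGC (means of 204, 197 and 181 CPM) and lowest, outside erythroid cells, in microglia at 63.5 and 91.7 CPM. Uhrf2 had the same leading classes, with means of 216 CPM in cycling GE progenitors, 184 CPM in cycling RGC and 180.1 CPM in cycling IPC. Erythroid cells were the lowest class for 8 of the 9 genes, the exception being Uhrf1.

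**Figure D1:**
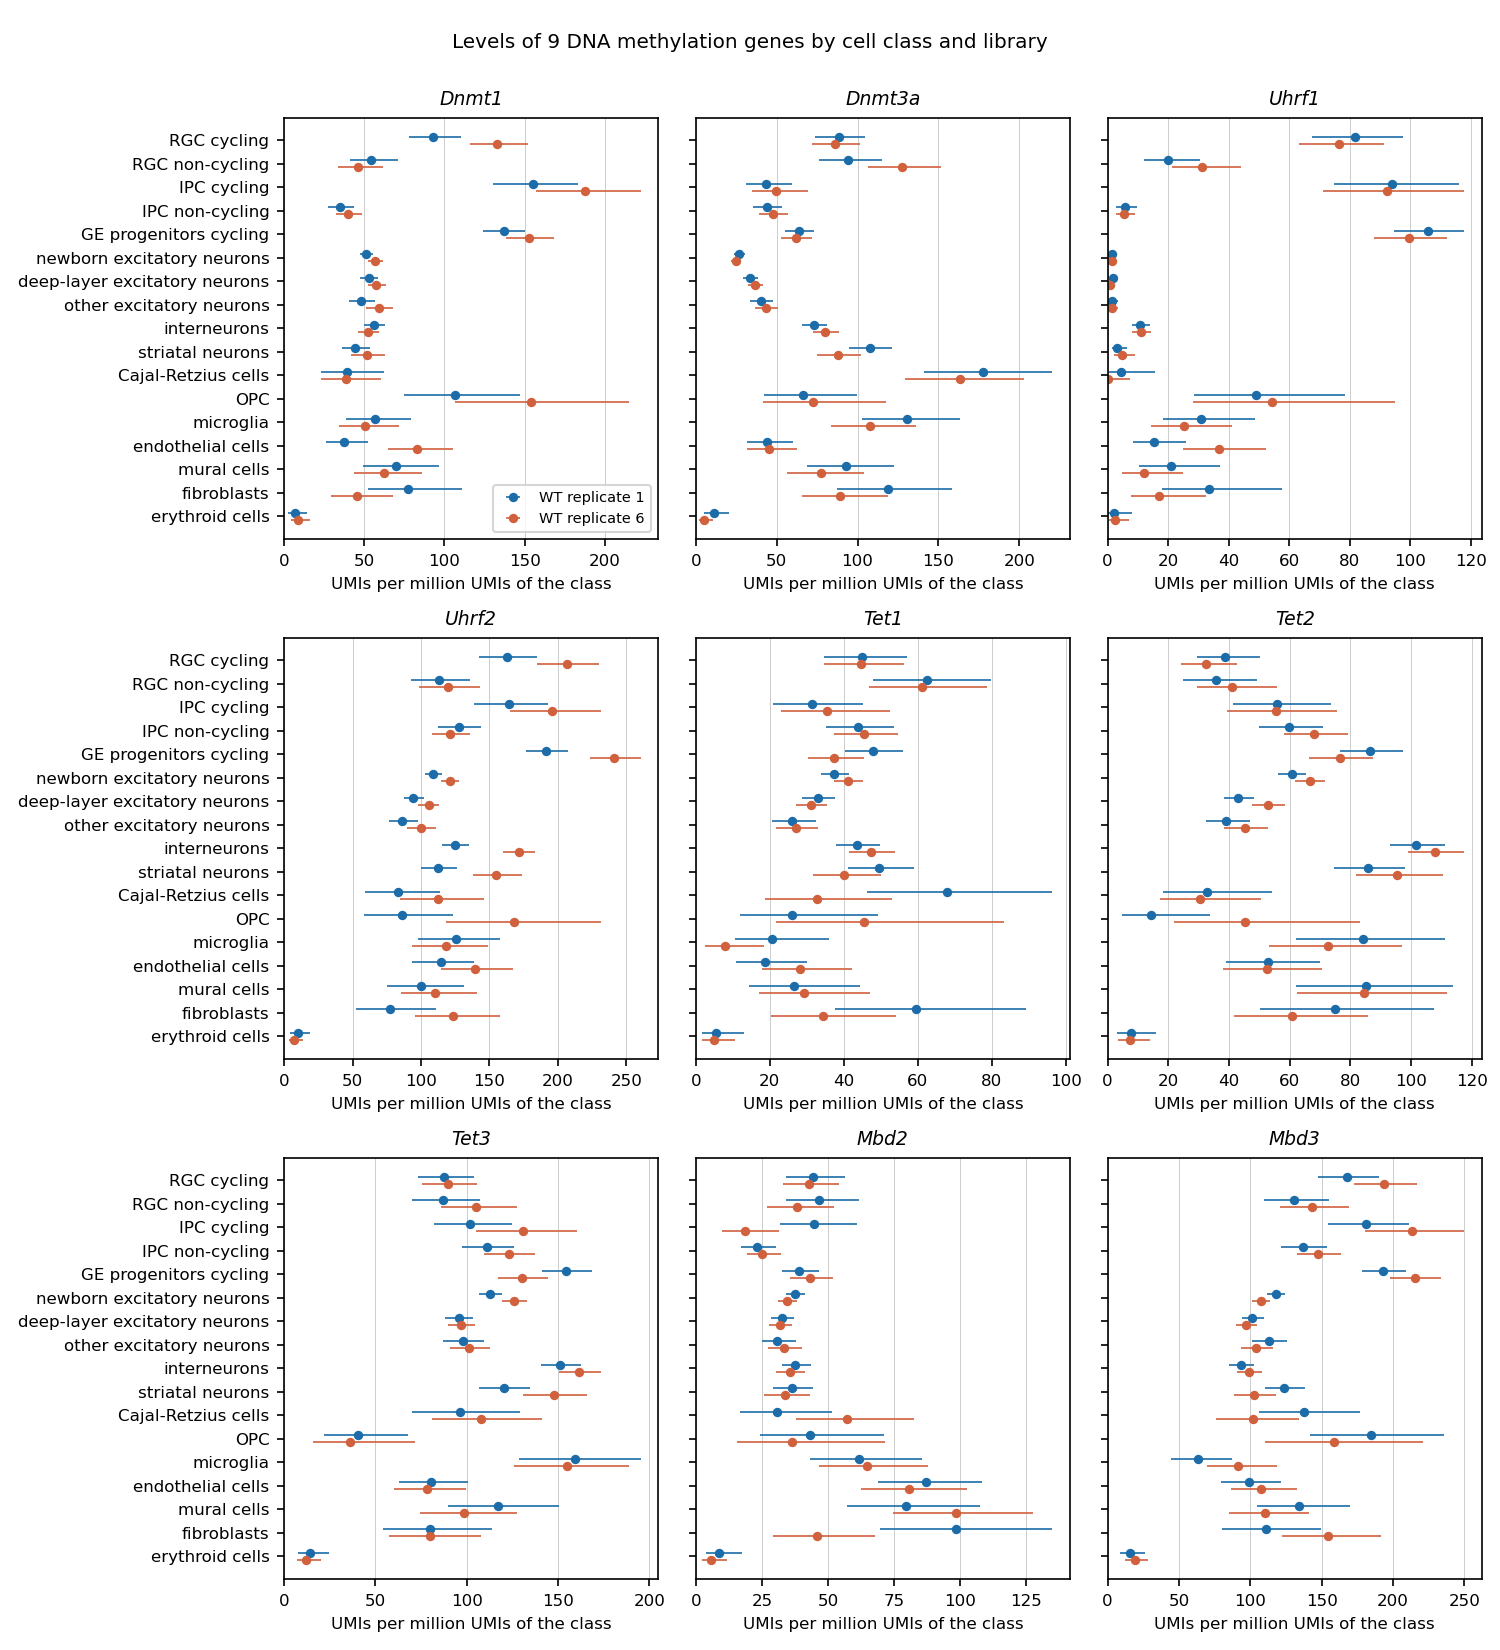
Levels of the 9 genes in 17 cell classes, in CPM of the class (x axes start at 0 and differ between panels). Points are the 2 WT libraries and bars are exact 95% Poisson intervals, which cover counting error only. The cycling classes lead for Dnmt1 and Uhrf1, Cajal-Retzius cells lead for Dnmt3a at 177 and 163 CPM, and interneurons lead for Tet2.

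The first comparison asked which of the genes follow proliferation within RGC. Dnmt1, its cofactor Uhrf1 and the related Uhrf2 were called higher in cycling RGC, and none of the 9 genes was called lower. Dnmt1 was at 93.1 and 133 CPM in cycling RGC and at 54.4 and 46.1 CPM in non-cycling RGC, so that the classes did not overlap. Its log2 difference was 1.18 ± 0.21 (SE, edgeR, adjusted p = 0.00169), a 2.27-fold higher level. Uhrf1 was at 81.6 and 76.4 CPM in cycling cells and at 19.8 and 31.1 CPM in non-cycling cells. The difference was 1.65 ± 0.23 on the log2 scale (edgeR, adjusted p = 2.1e-04). Uhrf2 moved less, from 113 and 119 CPM to 162.5 and 206 CPM, with a log2 difference of 0.68 ± 0.16 (edgeR, adjusted p = 0.0105), which DESeq2 did not call (adjusted p = 0.0819).

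Of all 10352 genes tested in RGC, 8.51% were called higher and 7.07% lower in cycling cells, against 3 and 0 of the 9 members. Mbd3 was at 168 and 194 CPM in cycling and 131 and 143 CPM in non-cycling RGC, groups that did not overlap, with a log2 difference of 0.42 ± 0.15 (edgeR, adjusted p = 0.0789). With the library as a replicate block its adjusted p was 0.0425. Dnmt3a was at 88.4 and 86.0 CPM in cycling RGC and at 94.0 and 127 CPM in non-cycling RGC. Its levels and those of Tet1, Tet2, Tet3 and Mbd2 did not pass the test. Tet1 was at 44.9 and 44.6 CPM in cycling and 62.3 and 61.2 CPM in non-cycling RGC, without overlap. Its log2 difference was -0.45 ± 0.19 (edgeR, adjusted p = 0.142).

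The same comparison in IPC gave larger differences. Here 4 of the 9 genes were called higher and 0 lower, beside 11.5% and 7.72% of all 10525 genes tested. Dnmt1 was at 155 and 187.5 CPM in cycling IPC and at 34.8 and 40.2 CPM in non-cycling IPC, a 4.6-fold difference (log2 2.20 ± 0.17, edgeR, adjusted p = 7.0e-06). Uhrf1 was at 93.8 and 92.3 CPM against 5.64 and 5.28 CPM, a 17.1-fold difference (log2 4.10 ± 0.24, edgeR, adjusted p = 1.2e-06). The non-cycling sums rest on 12 and 13 Uhrf1 UMIs. Both libraries gave nearly the same level on each side of this comparison.

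Smaller increases in cycling IPC concerned Uhrf2 and Mbd3. Uhrf2 was at 164 and 196 CPM against 127 and 121 CPM (log2 0.55 ± 0.14, edgeR, adjusted p = 0.0207). Mbd3 was at 181 and 213 CPM against 137 and 148 CPM (log2 0.48 ± 0.14, edgeR, adjusted p = 0.0339). Tet2 was at 55.4 and 55.9 CPM in cycling IPC and at 59.7 and 68.2 CPM in non-cycling IPC, and Tet3 at 102 and 131 CPM against 111 and 123 CPM. Neither passed the test, nor did Dnmt3a, Tet1 or Mbd2. Tet1 was at 31.3 and 35.5 CPM in cycling and 43.7 and 45.5 CPM in non-cycling IPC, without overlap (edgeR, adjusted p = 0.238). The calls of Uhrf2 and Mbd3 in IPC were not made by DESeq2 (adjusted p = 0.153 and 0.222).

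**Figure D2:**
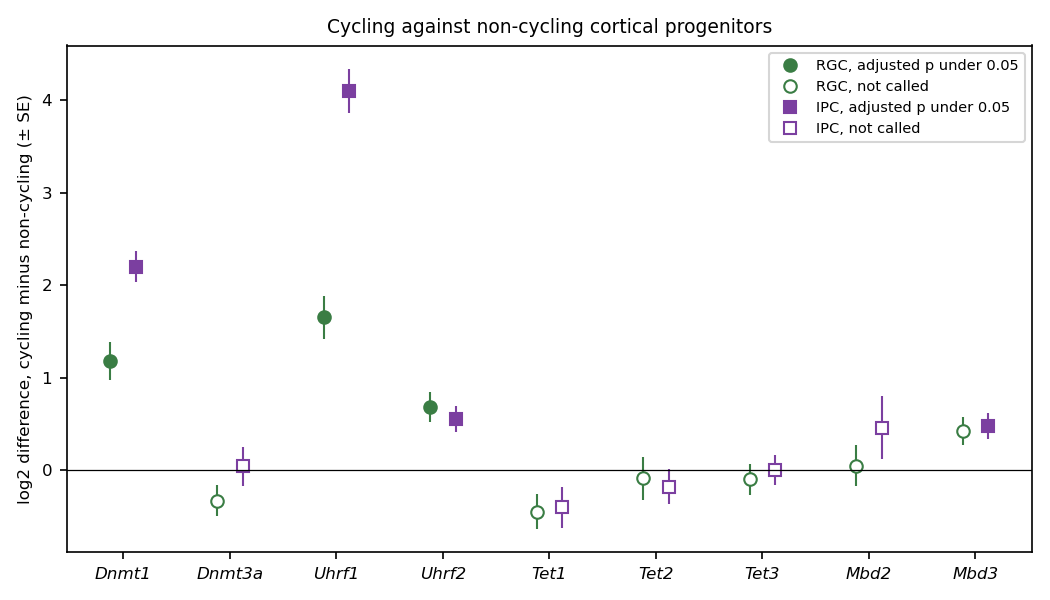
Log2 difference between cycling and non-cycling cells for each of the 9 genes, in RGC (circles) and IPC (squares), with the SE of the edgeR fit as bars. Filled symbols have an adjusted p under 0.05. Uhrf1 is at 1.65 in RGC and 4.10 in IPC and Dnmt1 at 1.18 and 2.20.

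Whether the difference itself depended on the progenitor type was tested as an interaction. Uhrf1 was called, with the cycling effect in RGC smaller than in IPC by -2.38 ± 0.36 on the log2 scale (edgeR, adjusted p = 0.00921). Dnmt1 was not called (edgeR, adjusted p = 0.187). Among all 11090 genes tested, 0.162% were called positive and 0.505% negative, against 0 and 1 of the 9 members. The Uhrf1 levels of the cycling classes were close, and it was the non-cycling level that differed, 19.8 and 31.1 CPM in RGC against 5.64 and 5.28 CPM in IPC.

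The S-phase genes also differed between these non-cycling classes. The summed level of 17 S-phase genes, such as the Mcm replication helicase subunits, was 619 and 696 CPM in non-cycling RGC and 335 and 331 CPM in non-cycling IPC. When cells with 5 or more UMIs of the S-phase list were left out, an alternative chosen after seeing the data, 72.2% and 65.5% of non-cycling RGC remained, and their Uhrf1 UMIs went from 20 and 31 to 1 and 0. The 0 UMIs in replicate 6 allow a level of up to 4.88 CPM (3 UMIs, counting error only). In non-cycling IPC 88.5% and 87.5% of cells remained, and the UMIs went from 12 and 13 to 5 and 3. Without those cells the interaction estimate was 1.09 (edgeR, adjusted p = 0.848).

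The S-phase and mitotic parts of the cycle were then compared within cycling RGC and IPC pooled. Cells with more UMIs of the S-phase list than of a list of 13 mitotic genes were set against cells with fewer. Dnmt1 was at 166 and 244 CPM in the former and at 89.5 and 105 CPM in the latter (log2 1.07 ± 0.19, edgeR, adjusted p = 0.00329). Uhrf1 was at 148 and 144 CPM against 52.1 and 51.1 CPM (log2 1.51 ± 0.17, edgeR, adjusted p = 1.1e-04). These 2 of the 9 genes were called higher and 0 lower, beside 3.82% and 2.93% of the 9904 genes tested. Tet2 was at 24.4 and 34.1 CPM in S-phase-weighted cells and at 47.1 and 50.1 CPM in the mitotic ones, without overlap of the libraries, and was not called.

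All RGC and IPC were also placed in 4 bins by whether they held at least 5 UMIs of each list, as a description without a test. Uhrf1 had a mean of 2.06 CPM where both lists were low, 82.9 CPM with only the S-phase list high, 80.7 CPM with both high and 28.3 CPM with only the mitotic list high. Dnmt1 had means of 28.8, 115, 150.4 and 31.3 CPM in the same order. Uhrf2 had its highest mean, 192.5 CPM, where both lists were high. Tet2 ran the other way, with 65.3 CPM where both lists were low and 33.3 CPM with only the S-phase list high. Of the 611 and 676 progenitors, 79 and 87 lay within 1 UMI of a cut, and the bins depend on cell depth as well as on the cycle.

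**Figure D3:**
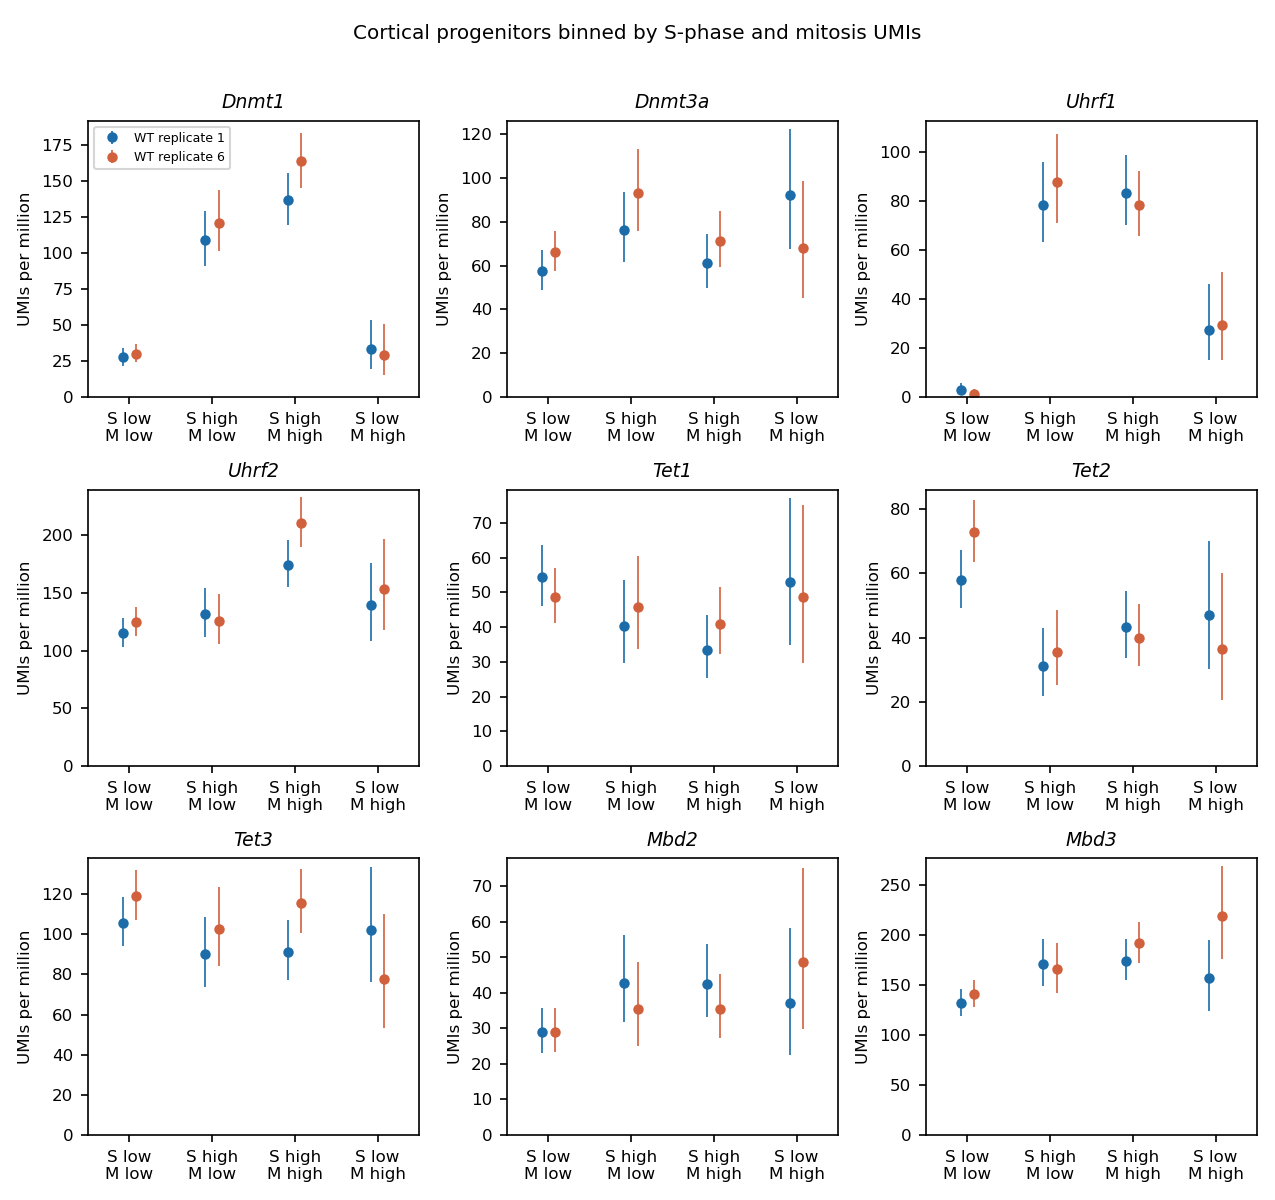
Levels of the 9 genes in cortical progenitors binned by UMIs of the S-phase and mitotic lists (high means at least 5 UMIs), in CPM of the bin. Points are the 2 WT libraries and bars exact 95% Poisson intervals. Dnmt1 and Uhrf1 are high in both S-high bins, with Dnmt1 at means of 115 and 150.4 CPM against 28.8 and 31.3 CPM in the S-low bins.

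Of 12 partners of the writers, 9 were tested in RGC and 5 were called higher and 0 lower, with a median log2 difference of 0.83 against -0.01 for all genes. The largest were the replication ligase Lig1 (1.33 ± 0.18), the sliding clamp Pcna (1.23 ± 0.15) and the chromatin remodeller Hells (0.86 ± 0.16), which assists maintenance methylation. In IPC 7 of 10 were called higher and 0 lower, led by Cdca7l (3.20 ± 0.68), Lig1 (3.19 ± 0.17) and Hells (2.87 ± 0.17), and the median was 1.93 against -0.03. In the S-phase-weighted cells 5 of 9 were called higher, led by Lig1 (2.39 ± 0.17), Pcna (2.28 ± 0.16) and Hells (1.88 ± 0.15). The interaction called Hells (-1.95 ± 0.23), Lig1 (-1.80 ± 0.26) and Pcna (-1.21 ± 0.20), all with the smaller effect in RGC.

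The other partner lists were less uniform. Of 11 NuRD subunits 3 were called higher in cycling RGC and 3 in cycling IPC, and 0 lower in either. Of the erasers' partners and repair genes, 0 were called higher and 1 lower of 10 in RGC, and 1 higher and 3 lower of 12 in IPC. Idh1, which supplies the TET cofactor 2-oxoglutarate, was lower in both (-0.54 ± 0.17 and -0.93 ± 0.18). Of the 8 readers, Mbd5 was lower in cycling RGC (-0.55 ± 0.15), and in cycling IPC 1 was higher and 2 lower, with Zbtb38 the lowest (-1.09 ± 0.17). Cxxc5, a CXXC-domain protein linked to TET function, was lower in cycling IPC (-0.74 ± 0.21).

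The step from RGC to IPC was compared in the non-cycling cells of both classes. The de novo enzyme Dnmt3a fell, the eraser Tet2 rose, and Uhrf1 and Mbd2 were lower. Dnmt3a was at 43.7 and 47.5 CPM in IPC and at 94.0 and 127 CPM in RGC, a 2.34-fold lower level (log2 -1.23 ± 0.17, edgeR, adjusted p = 3.2e-04). Tet2 was at 59.7 and 68.2 CPM against 35.6 and 41.1 CPM (log2 0.79 ± 0.19, edgeR, adjusted p = 0.00808). Mbd2 was at 23.0 and 25.2 CPM against 46.5 and 38.1 CPM (log2 -0.76 ± 0.22, edgeR, adjusted p = 0.0201). Uhrf1 had a log2 difference of -2.16 ± 0.36 (edgeR, adjusted p = 9.8e-04), and with the S-phase-list cells left out it had too few UMIs to be tested. DESeq2 did not call Tet2 or Mbd2 (adjusted p = 0.119 and 0.215).

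Beside these 1 higher and 3 lower members, 15% and 18% of 11039 genes were called higher and lower. Without the S-phase-list cells the Dnmt3a difference was -1.16 (edgeR, adjusted p = 0.00162) and the Mbd2 difference was -0.90 (edgeR, adjusted p = 0.0276). The Tet2 difference was then 0.54 and not called (edgeR, adjusted p = 0.0764). Dnmt1 was at 34.8 and 40.2 CPM in IPC and at 54.4 and 46.1 CPM in RGC and did not pass the test.

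Among the partners in this comparison, 5 of 9 writers' partners were lower and 0 higher, led by Cdca7l (-2.73 ± 0.59), Lig1 (-1.59 ± 0.19) and Hells (-1.35 ± 0.19). Cxxc4, another CXXC-domain gene, was lower as well (-1.96 ± 0.25). The methyl-CpG-binding zinc finger gene Zbtb38 was higher in IPC (2.71 ± 0.20), as was Gadd45g (2.05 ± 0.20), which is itself a known marker of IPC. Gadd45a was called higher at 11.8 and 9.34 CPM, against 0 and 2.01 CPM in RGC. Of 11 NuRD subunits 4 were higher and 1 lower, of 12 erasers' partners and repair genes 3 higher and 2 lower, and of 8 readers 2 higher and 0 lower.

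Excitatory neurons were set against non-cycling RGC to follow the genes through differentiation. Dnmt3a and Tet1 fell and Tet2 and Tet3 rose. Dnmt3a was at 31.0 and 31.7 CPM in neurons, against 94.0 and 127 CPM in RGC (log2 -1.61 ± 0.14, edgeR, adjusted p = 5.7e-05). Tet1 was at 34.3 and 35.5 CPM against 62.3 and 61.2 CPM (log2 -0.61 ± 0.12, edgeR, adjusted p = 0.00397). Tet2 was at 51.7 and 58.6 CPM against 35.6 and 41.1 CPM (log2 0.73 ± 0.15, edgeR, adjusted p = 0.00503). The classes did not overlap for any of these genes.

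Tet3 was at 105 and 112 CPM in neurons and at 87.1 and 105 CPM in RGC (log2 0.39 ± 0.11, edgeR, adjusted p = 0.0229), and this call was lost when counts were scaled by total UMIs alone (0.17). Uhrf1 was at 1.47 and 1.33 CPM, a level not shown to exceed free RNA, with a log2 difference of -3.96 ± 0.33 (edgeR, adjusted p = 4.4e-05). With the S-phase-list cells left out of RGC the estimate was 1.04 (edgeR, adjusted p = 0.534), since RGC then held 1 UMI in all. The background of this comparison was high, with 25% of 15155 genes called higher and 22.9% lower, against 2 and 3 of 9 members. The median of all genes was 0.08 with TMM scaling and -0.13 with total UMIs.

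Dnmt1 kept a clear level in postmitotic neurons. It was at 51.3 and 57.5 CPM in excitatory neurons and at 54.4 and 46.1 CPM in non-cycling RGC, and was not called between them. After the S-phase-list cells were left out, neurons held 52.0 and 57.1 CPM and RGC 31.2 and 26.0 CPM. In that setting, chosen after seeing the data, Dnmt1 was higher in neurons by 1.12 on the log2 scale (edgeR, adjusted p = 0.0016). The setting picks cells by S-phase transcripts, with which Dnmt1 runs in progenitors, and kept 72.2% and 65.5% of RGC but 94.6% and 95.9% of neurons. A lower RGC level thus follows in part from the choice of cells, which also holds for the other comparisons in this setting. With each cell reduced to 1500 UMIs the difference was -0.28 and not called. Non-cycling IPC held 25.9 and 33.1 CPM without those cells.

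Partners in the neurons against RGC comparison included 2 higher and 5 lower of 11 writers' partners, with Cdca7l (-3.82 ± 0.39), Cdca7 (-3.23 ± 0.20) and Hells (-3.12 ± 0.13) lowest. Chd3, the helicase subunit of NuRD (2.50 ± 0.13), Zbtb38 (2.05 ± 0.15) and the deacetylase gene Hdac2 (1.28 ± 0.10) were the most increased. Of 11 NuRD subunits 5 were higher and 2 lower, of 8 readers 3 higher and 0 lower, and of 13 erasers' partners and repair genes 1 higher and 4 lower.

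Deep-layer neurons, gated on layer 5 and 6 markers such as Fezf2 and Bcl11b, were compared with newborn migrating neurons. The classes differ in layer markers as well as in maturity, which this comparison cannot tell apart. Dnmt3a was at 33.5 and 36.6 CPM in deep-layer neurons and at 26.9 and 25.0 CPM in newborn neurons, and was higher by 0.45 ± 0.10 on the log2 scale (edgeR, adjusted p = 0.0119). Tet2 was at 43.1 and 52.9 CPM against 60.7 and 66.6 CPM (log2 -0.39 ± 0.10, edgeR, adjusted p = 0.0262). Tet3 was at 95.6 and 96.8 CPM against 113 and 126 CPM (log2 -0.29 ± 0.07, edgeR, adjusted p = 0.0206). The classes did not overlap for any of the 3 genes.

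Among 13787 genes tested, 16.1% were called higher and 12.9% lower, against 1 and 2 of 9 members. With the library as a replicate block 5 members were called, the additions being Tet1 (-0.28, edgeR, adjusted p = 0.0336) and Uhrf2 (-0.18, edgeR, adjusted p = 0.0318). DESeq2 called 0 of the 9, and edgeR without the low-count filter called 1. The partner lists had 0 writers' partners called, and Mta2 (-0.92 ± 0.11), Hdac1 (-0.89 ± 0.10) and Mbd6 (-0.76 ± 0.23) were lowest in deep-layer neurons, while Cxxc4 was higher (1.88 ± 0.17). Of 11 NuRD subunits 0 were higher and 3 lower, of 8 readers 0 higher and 2 lower, and of 13 erasers' partners and repair genes 1 higher and 5 lower.

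Interneurons and excitatory neurons differed in 7 of the 9 genes, 6 of them higher in interneurons and 1 lower. The interneuron gate took cells with Gad and Dlx UMIs and at most 1 UMI of the striatal markers. It required no marker of cortical interneurons, so striatal or other GE-derived neurons of low depth may be among these cells. Dnmt3a was at 73.0 and 80.1 CPM in interneurons against 31.0 and 31.7 CPM in excitatory neurons, a 2.28-fold difference (log2 1.19 ± 0.07, edgeR, adjusted p = 1.1e-05). Tet2 was at 102 and 108 CPM against 51.7 and 58.6 CPM (log2 0.83 ± 0.08, edgeR, adjusted p = 9.8e-05). Tet3 was at 151 and 162 CPM against 105 and 112 CPM (log2 0.43 ± 0.06, edgeR, adjusted p = 0.00126). None of these genes had overlapping libraries. Striatal neurons, at means of 97.7 CPM for Dnmt3a, 90.6 CPM for Tet2 and 134 CPM for Tet3, were also above excitatory neurons, without a test. The higher levels are thus not particular to interneurons.

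Smaller differences were called for 3 further genes. Tet1 was at 43.6 and 47.3 CPM in interneurons against 34.3 and 35.5 CPM (log2 0.28 ± 0.08, edgeR, adjusted p = 0.0229). Uhrf2 was at 125 and 172 CPM against 101 and 112.5 CPM (log2 0.37 ± 0.13, edgeR, adjusted p = 0.0432). Mbd3 was at 93.4 and 99.1 CPM against 112 and 103 CPM (log2 -0.26 ± 0.07, edgeR, adjusted p = 0.023), and scaling by total UMIs alone ended this call. DESeq2 made none of these 3 calls (adjusted p = 0.149 for Tet1, 0.0557 for Uhrf2 and 0.126 for Mbd3). Dnmt1 was at 56.0 and 52.4 CPM in interneurons and at 51.3 and 57.5 CPM in excitatory neurons, so that the libraries overlapped, and Mbd2 at 37.6 and 35.5 CPM against 34.9 and 33.4 CPM. The background was 23.2% higher and 23.3% lower of 15428 genes.

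Uhrf1 was at 10.8 and 10.9 CPM in interneurons (log2 2.85 ± 0.22 against excitatory neurons, edgeR, adjusted p = 3.8e-05). Its UMIs were held by few cells, 3.71% and 3.68% at median depths of 4013 and 3596 UMIs. With the S-phase-list cells left out, 95.1% and 95.3% of interneurons remained and the UMIs went from 54 and 53 to 17 and 20, giving 3.69 and 4.51 CPM and a log2 difference of 1.45 (edgeR, adjusted p = 0.0056). The gates had already removed interneurons with any Mki67 or Top2a UMI.

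Among the writers' partners 5 of 11 were higher in interneurons and 1 lower, with a list median of 0.16 against -0.02 for all genes, and the largest differences were those of Cdca7 (4.35 ± 0.12) and Cdca7l (4.03 ± 0.23). Gadd45g was higher too (2.65 ± 0.12). Zbtb38 (-1.63 ± 0.09), Mta3 (-0.95 ± 0.11) and Idh1 (-0.55 ± 0.07) were the lowest. Of 11 NuRD subunits 1 was higher and 5 lower, of 8 readers 1 higher and 1 lower, and of 13 erasers' partners and repair genes 5 higher and 2 lower.

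The published study that drew on these libraries deleted Dnmt1 in somatostatin interneurons, in other mice. The genes were therefore also described in interneurons with a Sst UMI, without a test because a cell without a Sst UMI may still express it. There were 118 and 105 such cells, in which Lhx6, a transcription factor of this lineage, was at 223 and 219 CPM, against 103 and 123 CPM in the 960 and 1036 others. Dnmt1 was at 51.1 and 52.5 CPM in cells with a Sst UMI and at 56.8 and 52.4 CPM in those without, levels that overlapped. Dnmt3a was at 69.7 and 71.2 CPM against 73.5 and 81.2 CPM. Tet1 was at 32.5 and 31.9 CPM against 45.3 and 49.2 CPM, and Tet3 at 122 and 127.5 CPM against 155.5 and 166 CPM, both lower in the cells with a Sst UMI in each library. The level was lower in both libraries also for Dnmt3a, Uhrf1, Tet2, Mbd2 and Mbd3. Mbd3 was at 88.3 and 67.5 CPM against 94.2 and 103 CPM. The Poisson intervals of cells with and without a Sst UMI overlapped for each of these genes, and for Tet1 and Tet3. The exception was Mbd3 in replicate 6, with intervals up to 93.43 CPM and from 93.65 CPM. The lower levels were thus mostly not told apart from counting error. Uhrf1 had 2 and 4 UMIs in the cells with a Sst UMI, and Tet1 had 21 and 17.

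**Figure D4:**
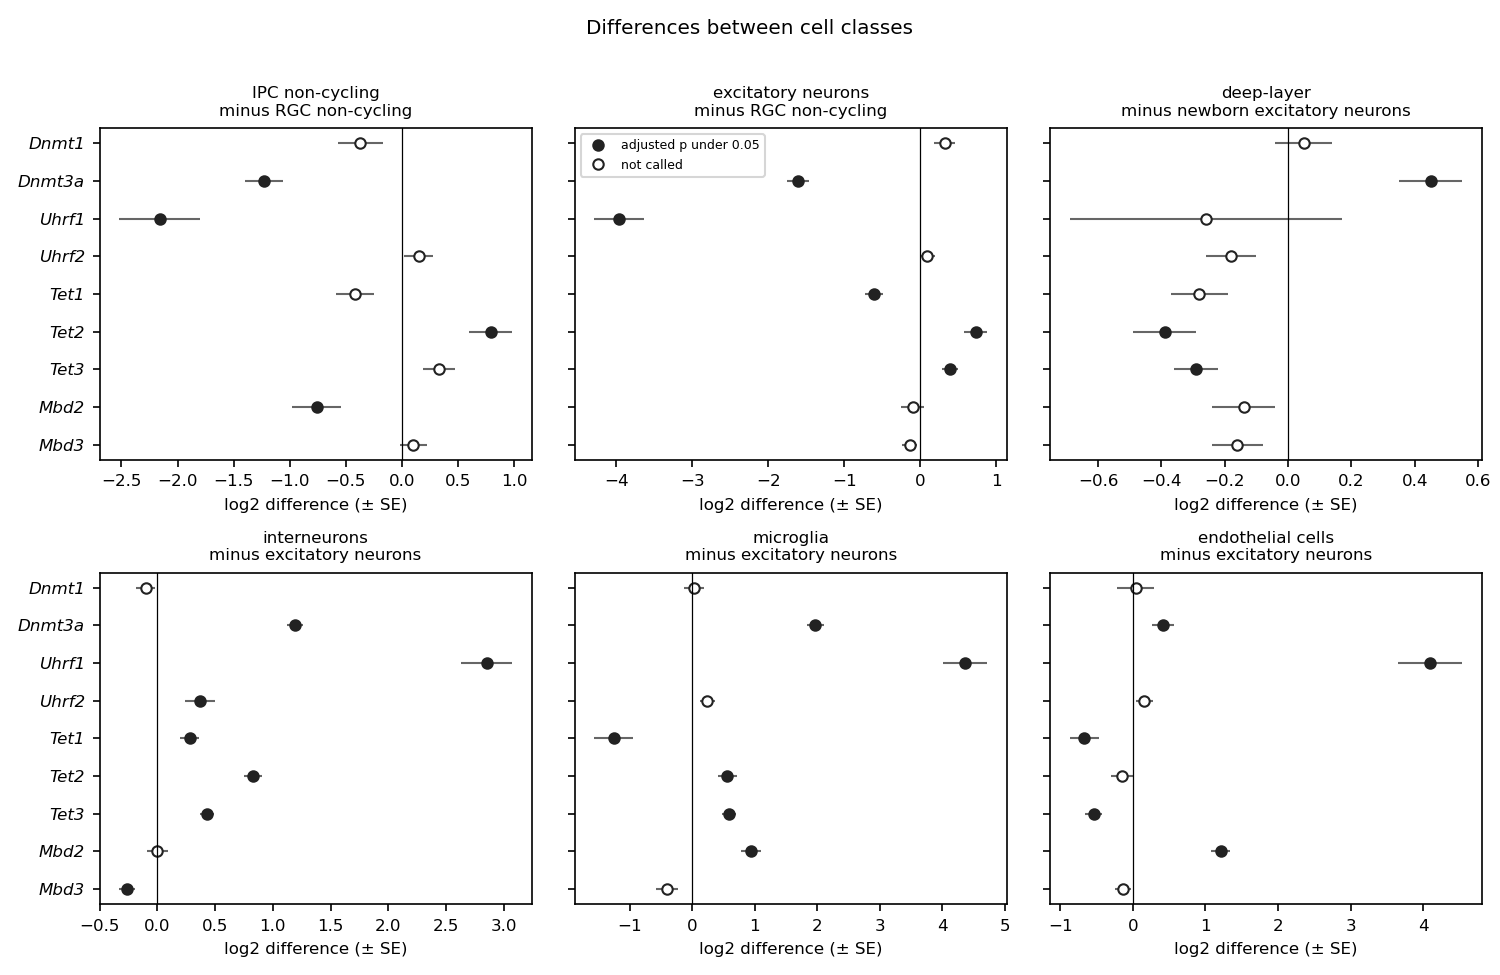
Log2 differences of the 9 genes in 6 comparisons between cell classes, first-named class minus second, with the SE of the edgeR fit as bars and filled points for an adjusted p under 0.05. X axes differ between panels. Dnmt3a is at -1.61 in excitatory neurons against RGC and at 1.19 in interneurons and 1.97 in microglia against excitatory neurons.

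Microglia, the resident macrophages of the brain, were compared with excitatory neurons. Dnmt3a, Uhrf1, Tet2, Tet3 and Mbd2 were higher and Tet1 was lower. Dnmt3a was at 130.4 and 107.5 CPM against 31.0 and 31.7 CPM (log2 1.97 ± 0.13, edgeR, adjusted p = 1.1e-05). Mbd2 was at 61.8 and 64.8 CPM against 34.9 and 33.4 CPM (log2 0.94 ± 0.16, edgeR, adjusted p = 0.00133). Tet1 was at 20.6 and 7.90 CPM against 34.3 and 35.5 CPM (log2 -1.26 ± 0.31, edgeR, adjusted p = 0.0107). The classes did not overlap for any of these genes, but the libraries differed most for Tet1, whose log2 difference was -0.68 in replicate 1 alone and -2.03 in replicate 6 alone.

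Tet3 was at 159.5 and 155 CPM in microglia (log2 0.59 ± 0.11, edgeR, adjusted p = 0.00299) and Tet2 at 84.1 and 72.7 CPM (log2 0.56 ± 0.15, edgeR, adjusted p = 0.0153). Uhrf1 was at 30.9 and 25.3 CPM (log2 4.37 ± 0.35, edgeR, adjusted p = 2.6e-05). The microglia were not gated on the cell cycle. With cells left out that held Mki67, Top2a or 5 S-phase-list UMIs, 53.8% and 64.1% of microglia remained, their Uhrf1 UMIs went from 18 and 16 to 0 and 1, and the difference was 0.24 (edgeR, adjusted p = 0.911). The 0 UMIs allow up to 12.3 CPM. In the same setting Dnmt1 went from 56.6 and 50.6 to 16.3 and 33.6 CPM and was lower than in excitatory neurons (log2 -1.05, edgeR, adjusted p = 0.0181). The calls of Tet1 (-0.96, edgeR, adjusted p = 0.0832) and Tet3 (0.42, edgeR, adjusted p = 0.0564) were lost there.

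The background was 25.1% higher and 27.6% lower of 14905 genes, with 5 and 1 of 9 members, and the median of all genes was -0.24. Of the writers' partners 5 of 11 were higher, led by Cdca7l (4.0 ± 0.63), Hells (2.49 ± 0.33) and Lig1 (2.42 ± 0.22). Chd3 (-2.80 ± 0.20), Cxxc4 (-2.23 ± 0.50) and the uracil glycosylase gene Smug1 (-2.05 ± 0.61) were lowest. NuRD subunits divided into 3 higher and 5 lower of 11, readers into 1 and 4 of 8, and erasers' partners and repair genes into 3 and 5 of 13.

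Endothelial cells showed higher Mbd2 and lower Tet1 and Tet3 than excitatory neurons. Mbd2 was at 86.9 and 80.7 CPM against 34.9 and 33.4 CPM, a 2.32-fold difference (log2 1.21 ± 0.13, edgeR, adjusted p = 8.8e-05). Tet3 was at 80.3 and 78.2 CPM against 105 and 112 CPM (log2 -0.54 ± 0.12, edgeR, adjusted p = 0.00472). Tet1 was at 18.7 and 28.1 CPM against 34.3 and 35.5 CPM (log2 -0.67 ± 0.20, edgeR, adjusted p = 0.0227), and Dnmt3a at 44.01 and 45.2 CPM against 31.0 and 31.7 CPM (log2 0.42 ± 0.15, edgeR, adjusted p = 0.0396). With the library as a replicate block, the calls of Tet1 (edgeR, adjusted p = 0.0519) and Dnmt3a (edgeR, adjusted p = 0.0954) were lost.

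Uhrf1 was at 15.4 and 36.7 CPM in endothelial cells (log2 4.10 ± 0.44, edgeR, adjusted p = 9.6e-05), and 68.8% and 49.2% of the cells remained when those in cycle were left out. Its UMIs then went from 14 and 30 to 2 and 0, with a difference of 0.69 (edgeR, adjusted p = 0.633). Dnmt1 went from 37.4 and 83.1 to 21.9 and 28.3 CPM and was then lower than in excitatory neurons (log2 -1.34, edgeR, adjusted p = 4.5e-04). Over all 15117 genes 26.2% were higher and 29.8% lower, against 3 and 2 members. Partners of the writers were higher for 6 and lower for 1 of 11, among them the de novo methyltransferase Dnmt3b at 24.2 and 25.7 CPM against 3.13 and 2.57 CPM (3.04 ± 0.29), and Cdca7l (3.36 ± 0.61). Gadd45b was higher (4.25 ± 0.43), and Idh1 (-2.30 ± 0.15), Chd3 (-2.14 ± 0.15) and Hdac2 (-1.60 ± 0.11) were lowest.

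**Figure D5:**
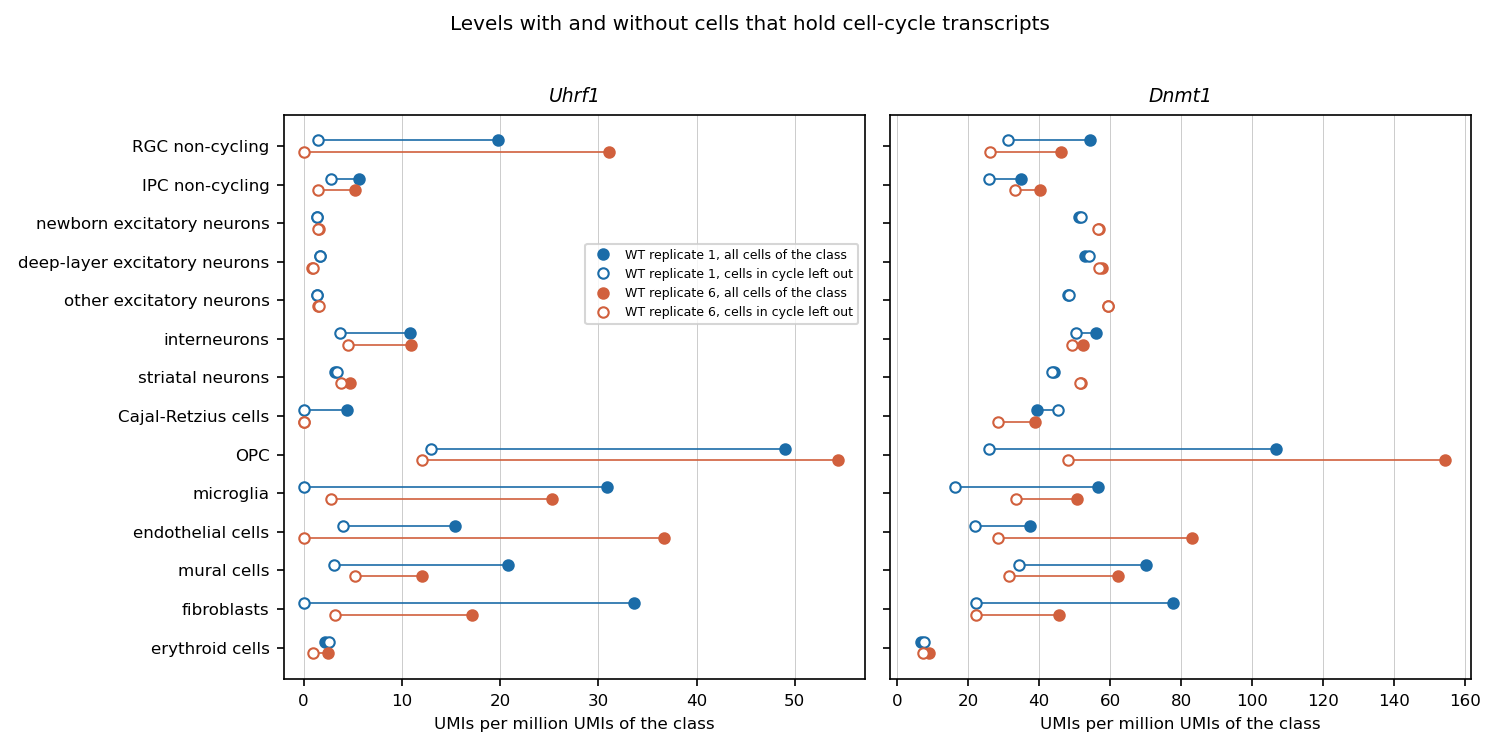
Uhrf1 (left) and Dnmt1 (right) in the classes that were not gated as cycling, in CPM of the class, with all cells (filled) and with cells left out that held Mki67, Top2a or at least 5 S-phase-list UMIs (open). Lines join the values of 1 library. Uhrf1 in non-cycling RGC goes from 19.8 and 31.1 to 1.49 and 0 CPM, while Dnmt1 in excitatory neurons stays near its level.

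The genes were last related to each other over the 34 sums of 17 classes and 2 libraries with at least 200000 UMIs, as a description, since sums of a library share depth and classes share cell-cycle content. The highest correlations of log2 CPM were Uhrf2 with Mbd3 (Pearson r = 0.86), Tet2 with Tet3 (r = 0.85), Dnmt1 with Mbd3 (r = 0.82) and Dnmt1 with Uhrf2 (r = 0.79). Dnmt1 and Uhrf1 had r = 0.78 and the lowest value was that of Uhrf1 with Tet3 (r = 0.10). Erythroid cells, low for all of the genes, enter all of these values.

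Among 7628 genes, those whose levels ran most like Dnmt1 were Tfdp1 (r = 0.95), the dimerisation partner of E2F factors, Ncapd3 (0.94) and Smc6 (0.92). Uhrf1 was nearest to Clspn, Gmnn and Lig1 (each 0.97), all with roles in DNA replication, of which Clspn is in the S-phase list. Dnmt3a had looser neighbours in Eea1 (0.83), Dnajb14 (0.81) and Cdip1 (0.80). The TET genes were nearest to Ift88 and Glt8d1 (0.89 each) for Tet1, the Polycomb-associated Bcor (0.89) and Phc2 (0.86) for Tet2, and Bicra and Kansl1l (0.91 each) for Tet3. Mbd2 was nearest to Itgb1 and Iqgap1 (0.91 each), Mbd3 to Ssb (0.96), Hnrnpk and Srsf3 (0.95 each), and Uhrf2 to Ppp6r3 (0.96), Taf15 and Numa1 (0.95 each).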

How the data were processed

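Droplet-based single-cell libraries (10x Genomics 3' chemistry, version 3.1) of dorsal telencephalon from 2 WT libraries at embryonic day 16.5 were analysed. The authors aligned and counted reads with Cell Ranger 7.0.0, per the file headers, on mm10 per the submitters' processing notes. The deposited matrices hold UMI counts that had not been normalized, for 14136 and 13046 barcodes with at least 500 UMIs. Whether intronic reads were counted was not given in the sources used here.

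Barcodes were retained if they held 1500 to 60000 UMIs, less than 10% of them mitochondrial, which left 65195733 and 62402927 UMIs. Doublet scores were computed by a Scrublet-type method with 2 simulated doublets per cell, marking 920 (11.3%) and 857 (10.4%) cells. Marked cells were kept in the main analysis and left out in an alternative. Gates needed at least 6 UMIs of radial glia markers over 3 genes, 2 of Eomes, 4 of excitatory, interneuron, striatal or deep-layer markers, 3 of newborn, Cajal-Retzius or OPC markers, and 8 of each other non-neural list, or 10% globin UMIs for erythroid cells. These minimums were set from the marker distributions in these data. Cells that passed unlike gates, 2.41% and 2.16%, were left out.

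UMIs were summed per library and class. Sums were fitted in R 4.3.3 with edgeR 4.0.16 (TMM, filterByExpr, glmQLFit and glmQLFTest, two-sided), each fit holding the classes of its comparison, with Benjamini-Hochberg adjustment at 0.05. Alternatives were DESeq2 1.42.0, total-UMI scaling, no low-count filter, all classes in a single fit, the library as a replicate block, stricter cell and class filters, another cycling gate, doublets left out, cells reduced to 1500 UMIs, each library alone and, chosen after seeing the data, cells in cycle left out. Same-numbered sums come from the same library, and their deviations correlated at r = 0.10 to 0.32 in the 9 comparisons between pairs of classes. The fitting steps were tested on simulated data. Detection at 2000 UMIs is the exact expectation over all draws. Intervals are 95% Poisson (CPM) or Wilson (shares) and, like the limit of 3 UMIs for a count of 0, cover counting error only. Python 3.11.15, numpy 2.4.6, scipy 1.17.1, pandas 2.3.3, scikit-learn 1.9.0 and matplotlib 3.10.9 were used.

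The members, partner lists and cycle lists were chosen with earlier results of these data known. Named partners are, in each comparison, the 3 genes of the 4 lists (44 genes) with the largest called difference in each direction. Nearest patterns are the 3 genes with the highest Pearson r of log2 CPM (prior 10 CPM), among genes with a mean of at least 20 CPM.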

Additional observations from a re-analysis of the deposited data

Results flagged for a closer look

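The Uhrf1 difference between cycling and non-cycling cells was not the same in RGC and IPC, by a test of the interaction itself. The estimate was -2.38 ± 0.36 on the log2 scale (edgeR, adjusted p = 0.00921), from differences of 1.65 in RGC and 4.10 in IPC. The summed S-phase list was at 619 and 696 CPM in non-cycling RGC and at 335 and 331 CPM in non-cycling IPC. Leaving out cells with at least 5 S-phase-list UMIs left 1 and 0 Uhrf1 UMIs in non-cycling RGC and 5 and 3 in non-cycling IPC, too few to compare the 2 classes, and gave an interaction of 1.09 (edgeR, adjusted p = 0.848). Over the 11 alternatives the adjusted p ranged from 2.3e-05 to 0.848.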

How the results depend on the processing

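Of the 40 differences called in the main analysis, 387 of 482 recomputed values counted as unchanged. Where a test was run, these kept their direction and their side of the threshold. Values of a single library have no test, and counted as unchanged if they moved by no more than the spread between the libraries. The main estimate often lies between the libraries, so that rule is easily met and the count overstates stability. A further 64 kept only the direction, 28 came from a single library and moved by more than the spread, and 3 turned sign. Of the 9 not called in the main analysis, 80 of 109 values counted as unchanged by these rules. Another 9 passed the threshold, 6 from a single library moved and 14 turned sign. Of 1071 recomputed levels and detection shares, 775 moved by less than the spread between libraries. These include the levels of each library alone, which lie within that spread by construction, so the count overstates how stable the levels are.

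With each cell reduced to 1500 UMIs, fewer of the 9 genes passed the low-count filter. The number called was then 0 of 5 tested in cycling RGC (Dnmt1 and Uhrf2 lost), 2 of 8 in cycling IPC (Uhrf2 and Mbd3 lost), 0 of 8 for their interaction (Uhrf1 lost), 1 of 6 for S-phase against mitotic cells (Dnmt1 lost), 1 of 7 for IPC against RGC (Tet2 lost), 2 of 9 for excitatory neurons against RGC (Tet1, Tet2 and Tet3 lost), 0 of 8 for deep-layer neurons (Dnmt3a, Tet2 and Tet3 lost), 5 of 9 for interneurons (Tet1 and Mbd3 lost), 2 of 8 for microglia (Tet1, Tet2 and Tet3 lost) and 1 of 8 for endothelial cells (Dnmt3a, Tet1 and Tet3 lost). Among the called genes, Uhrf1 was not tested in cycling RGC, IPC against RGC, microglia and endothelial cells, nor Mbd2 in IPC against RGC. DESeq2 called 2 in cycling IPC, 2 in IPC against RGC, 0 in deep-layer neurons and 4 in interneurons, and lost Uhrf2 in cycling RGC, Tet3 in excitatory neurons against RGC and Dnmt3a in endothelial cells. A single fit of all classes called 2 in cycling IPC and 4 in interneurons. Without a low-count filter 1 was called in deep-layer neurons. Without cells in cycle, 0 were called for the interaction and 2 of 8 tested in IPC against RGC, and Uhrf1, Tet1 and Tet3 in microglia, Uhrf1 in endothelial cells, Tet2 in excitatory neurons against RGC and Uhrf2 in interneurons were lost. The cause was not tested.

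The library as a replicate block called 5 genes in deep-layer neurons, adding Uhrf2 and Tet1 (edgeR, adjusted p = 0.0318 and 0.0336), and 3 in endothelial cells, losing Dnmt3a and Tet1 (0.0954 and 0.0519). It also called Mbd3 in cycling RGC (0.0425) and changed no other call recomputed for the 9 genes.

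Signs turned at 1500 UMIs per cell for Mbd3 in cycling RGC (-0.08), Tet2 in IPC against RGC (-0.02), Dnmt1 in excitatory neurons against RGC (-0.28) and Tet1 in deep-layer neurons (0.22), none of them called there. Without cells in cycle, the Uhrf1 interaction was 1.09 and Uhrf1 in excitatory neurons against RGC was 1.04, both not called. Dnmt1 in microglia was -0.75 at 1500 UMIs, -0.09 without the low-count filter, -0.02 with total UMIs and -0.05 without doublets. Dnmt1 in endothelial cells was -0.70 at 1500 UMIs, -0.13 without the low-count filter, -0.02 with the stricter cell filter, -0.01 with stricter gates and -0.45 without doublets. Without cells in cycle Dnmt1 was called lower in both, by -1.05 in microglia and -1.34 in endothelial cells (edgeR, adjusted p = 0.0181 and 4.5e-04).

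Over all genes, cycling RGC gave 1613 calls, against 646 with DESeq2, 876 without a low-count filter and 316 at 1500 UMIs, and cycling IPC 2021, against 996 with DESeq2, 1302 with stricter gates and 428 at 1500 UMIs. The interaction gave 74, against 309 without a low-count filter, 222 with the block, 33 without cells in cycle, 31 with stricter gates and 1 at 1500 UMIs. DESeq2 gave 311 of 668 for S-phase cells, 2004 of 3644 for IPC against RGC and 2366 of 3998 for deep-layer neurons, and the single fit 2538 for deep-layer neurons and 4446 of 7167 for interneurons. At 1500 UMIs these 4 comparisons gave 131, 1175, 1650 and 4412, and excitatory neurons against RGC, microglia and endothelial cells 3096 of 7258, 3792 of 7854 and 3577 of 8474. The share of calls that were higher moved from 52.2% to 39.7% in excitatory neurons against RGC and from 49.9% to 61% in interneurons with total UMIs, and with DESeq2 from 54.6% to 67.2% in cycling RGC, from 59.8% to 71.9% in cycling IPC and from 24.3% to 13.1% for the interaction.

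Each library alone leaves 1 sum per class and no test. Without replicate 1, Tet3 in excitatory neurons against RGC was 0.09, Uhrf2 and Mbd3 in interneurons 0.61 and -0.06, Tet1 and Tet2 in microglia -2.03 and 0.33, and Tet1 in endothelial cells -0.30. Without replicate 6, Dnmt1 in cycling RGC was 0.77 and Tet1 in microglia -0.68.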
